A study of Mus musculus with 3 samples.

Results

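CD73+ regulatory T cells (Treg) and Foxp3lo Treg progenitors (TRP) of the mouse thymus were compared by the T cell receptor α chains they carried and by their summed RNA. The CD73+ Treg were the 1865 cells with the CD73 hashtag that lay outside the authors' cluster 9, and the Foxp3lo TRP were the 1393 cells with the Foxp3lo hashtag, of 12208 cells in all. The α chain comparisons used cells with exactly 1 productive α chain. These were 823 CD73+ Treg and 804 Foxp3lo TRP, together 1627 of the 6982 such cells in the data. Another 536 cells with the CD73 hashtag, 234 of them with 1 α chain, lay in cluster 9 and were left out.

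All cells came from 1 pool of thymi of 8 female mice aged 7 to 12 weeks, of the strain labelled C56Bl/6, carrying TCliβ, TCRα+/- and Foxp3-GFP. The pool was sorted into 6 populations (CD73+ and CD73- Treg, Foxp3lo and CD25+ TRP, CD4 single-positive (CD4 SP) and CD4+CD8+ double-positive (DP) cells), and each was tagged with its own hashtag before gene expression, hashtag and α chain libraries were made. Every sorted cell stained for Vα2, the variable region encoded by the TRAV14 family, and CD8+ cells were depleted for both populations compared here. The transgenic TCliβ chain and the single functional Tcra copy were shared by both sides, so that receptors differed mainly in their α chain. With 1 pool per side and no label for the mouse, no test between populations was possible. The intervals given are exact Clopper-Pearson 95% intervals. They cover the counting of cells only, not the spread between mice, and cells of 1 clone are not independent draws.

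An α chain gene is assembled in DP thymocytes by joining a variable (TRAV) to a joining (TRAJ) segment, with bases trimmed and added at the joint, and the joint encodes the third complementarity-determining region (CDR3), the part of the chain that varies most and that touches the antigen peptide. Treg develop in the thymus from CD4 SP cells through CD25+ or Foxp3lo progenitors, and Foxp3 is the transcription factor that defines the lineage. CD73 is a surface ectonucleotidase used to set older and recirculating Treg apart from newly made ones in the thymus.

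The sequences that follow are the joints behind the CDR3 with the most different cell numbers on the 2 sides. They are shown to let the joint be read against its germline segments. Each runs from the codon of the conserved cysteine to the end of the CDR3, with bases that match neither the germline TRAV end nor the germline TRAJ in capitals. All 9 TRAV14 copies in the GENCODE M21 transcripts (GRCm38) end alike from that cysteine codon. The germline segments, from the same source, carry no capitals.
TRAV14 germline end: tgtgcagcaagtg
TRAJ7 germline: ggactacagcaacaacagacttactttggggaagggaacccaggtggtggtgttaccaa
TRAJ23 germline: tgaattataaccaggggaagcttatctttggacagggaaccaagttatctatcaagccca
TRAJ13 germline: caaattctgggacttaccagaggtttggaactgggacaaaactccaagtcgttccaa
CAASAGYSNNRLTL joint 1: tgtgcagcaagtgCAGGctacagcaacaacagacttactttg
CAASAGYSNNRLTL joint 2: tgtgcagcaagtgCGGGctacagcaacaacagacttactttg
CAASAGYSNNRLTL joint 3: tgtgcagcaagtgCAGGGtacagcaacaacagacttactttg
CAASAGYSNNRLTL joint 4: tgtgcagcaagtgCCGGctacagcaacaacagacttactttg
CAASAGYSNNRLTL joint 5: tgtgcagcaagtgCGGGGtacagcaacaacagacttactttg
CAASAGYSNNRLTL joint 6: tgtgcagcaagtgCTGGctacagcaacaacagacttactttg
CAASAGYSNNRLTL joint 7: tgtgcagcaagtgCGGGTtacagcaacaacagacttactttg
CAASADYSNNRLTL joint 1: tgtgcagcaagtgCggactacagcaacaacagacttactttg
CAASADYSNNRLTL joint 2: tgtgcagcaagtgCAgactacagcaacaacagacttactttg
CAASADYSNNRLTL joint 3: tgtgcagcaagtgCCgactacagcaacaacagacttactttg
CAASADYSNNRLTL joint 4: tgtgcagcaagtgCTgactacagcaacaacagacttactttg
CAASADYSNNRLTL joint 5: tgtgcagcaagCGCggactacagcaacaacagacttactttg
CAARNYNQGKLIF joint 1: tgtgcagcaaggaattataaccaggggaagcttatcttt
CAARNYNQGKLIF joint 2: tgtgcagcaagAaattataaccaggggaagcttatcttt
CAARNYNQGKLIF joint 3: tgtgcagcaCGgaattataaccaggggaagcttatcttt
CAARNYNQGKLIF joint 4: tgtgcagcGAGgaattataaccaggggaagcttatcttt
Rank 4 shared CDR3, on TRAJ13: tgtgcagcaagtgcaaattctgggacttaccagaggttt
Rank 6 shared CDR3, on TRAJ12: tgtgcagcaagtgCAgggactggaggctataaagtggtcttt
Leading CDR3 private to Foxp3lo TRP, on TRAJ56: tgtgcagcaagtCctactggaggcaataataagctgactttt
Leading CDR3 private to CD73+ Treg, on TRAJ13: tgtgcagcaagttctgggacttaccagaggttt
Leading CDR3 private to CD73+ Treg, on TRAJ22: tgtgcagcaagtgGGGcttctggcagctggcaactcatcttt
The 7 joints of CAASAGYSNNRLTL were all on TRAV14D-3-DV8, and each held 4 or 5 untemplated bases. They used 4 different codons for alanine at residue 5 and 3 for glycine at residue 6, with residues counted from 1 at the cysteine, and the rest of the joint was the same in all. CAASADYSNNRLTL differs from it by the substitution G6D, where the aspartate codon is the germline codon of TRAJ7, and its 5 joints held 1 to 3 untemplated bases. For the last 5 only the most used joint is shown, and their CDR3 are named by rank among shared CDR3 by cells, or as the leading private CDR3 on their TRAJ. The most used joints of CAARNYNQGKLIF and of the rank 4 and leading private TRAJ13 CDR3 held no untemplated base, so that germline TRAV14 and TRAJ bases alone account for every letter.

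TRAJ7 use set the populations apart. TRAJ7 (chr14:54211470-54211528, GRCm38, + strand, a joining segment of the Tcra locus) occurred in 138 of 823 CD73+ Treg, 16.8% (14.3 to 19.5%), and in 19 of 804 Foxp3lo TRP, 2.36% (1.43 to 3.67%). Of the 41 TRAJ seen, 3 had a higher share in CD73+ Treg with intervals that did not overlap (7.32% of those seen) and 1 had a lower share (2.44%). TRAJ22 (chr14:54197248-54197307) was found in 59 CD73+ Treg, 7.17% (5.50 to 9.15%), against 27 Foxp3lo TRP, 3.36% (2.22 to 4.85%). TRAJ9 (chr14:54209393-54209450) was found in 29 CD73+ Treg, 3.52% (2.37 to 5.02%), against 9 Foxp3lo TRP, 1.12% (0.513 to 2.11%). TRAJ56 (chr14:54159263-54159325) was the segment with the lower share, in 2 CD73+ Treg, 0.243% (0.0294 to 0.875%), against 14 Foxp3lo TRP, 1.74% (0.955 to 2.90%), and 10 of those 14 cells shared 1 CDR3. With cluster 9 kept, the TRAJ56 intervals overlapped (-1.27 percentage points, against -1.50), while the number of TRAJ apart rose to 6.

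The other frequent segments overlapped between the populations. TRAJ23 was used by 81 CD73+ Treg (9.84%) and 71 Foxp3lo TRP (8.83%). TRAJ26 was used by 53 (6.44%) and 76 (9.45%), and TRAJ13 by 51 (6.20%) and 76 (9.45%). TRAJ4 was used by 37 (4.50%) and 45 (5.60%), segments whose shares differed by less than their intervals. TRAJ12 was used by 28 CD73+ Treg (3.40%, 2.27 to 4.88%) and 51 Foxp3lo TRP (6.34%, 4.76 to 8.26%), with intervals that just overlapped. TRAJ15 was used by 47 CD73+ Treg (5.71%, 4.23 to 7.52%) and 23 Foxp3lo TRP (2.86%, 1.82 to 4.26%), again with intervals that just overlapped.

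Counting cells and counting receptors gave different pictures for TRAJ7 than for TRAJ22 and TRAJ9. TRAJ7 was found in 8 different CDR3 of CD73+ Treg (1.69% of 474) and 10 of Foxp3lo TRP (1.93% of 517), so the number of different TRAJ7 receptors did not differ in the direction of the cells. By different rearrangements, each a distinct CDR3 nucleotide sequence with its TRAV and TRAJ, TRAJ7 made up 20 of 595 (3.36%) and 13 of 636 (2.04%), with overlapping intervals. TRAJ22 made up 51 rearrangements in CD73+ Treg (8.57%, 6.45 to 11.1%) against 27 in Foxp3lo TRP (4.25%, 2.82 to 6.12%), and it was spread over 40 and 25 different CDR3. TRAJ9 made up 26 rearrangements (4.37%, 2.87 to 6.34%) against 9 (1.42%, 0.649 to 2.67%), over 20 and 8 different CDR3. TRAJ22 and TRAJ9 were the only segments whose intervals stayed apart when each rearrangement counted once, and no segment's did when each CDR3 counted once.

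**Figure D1:**
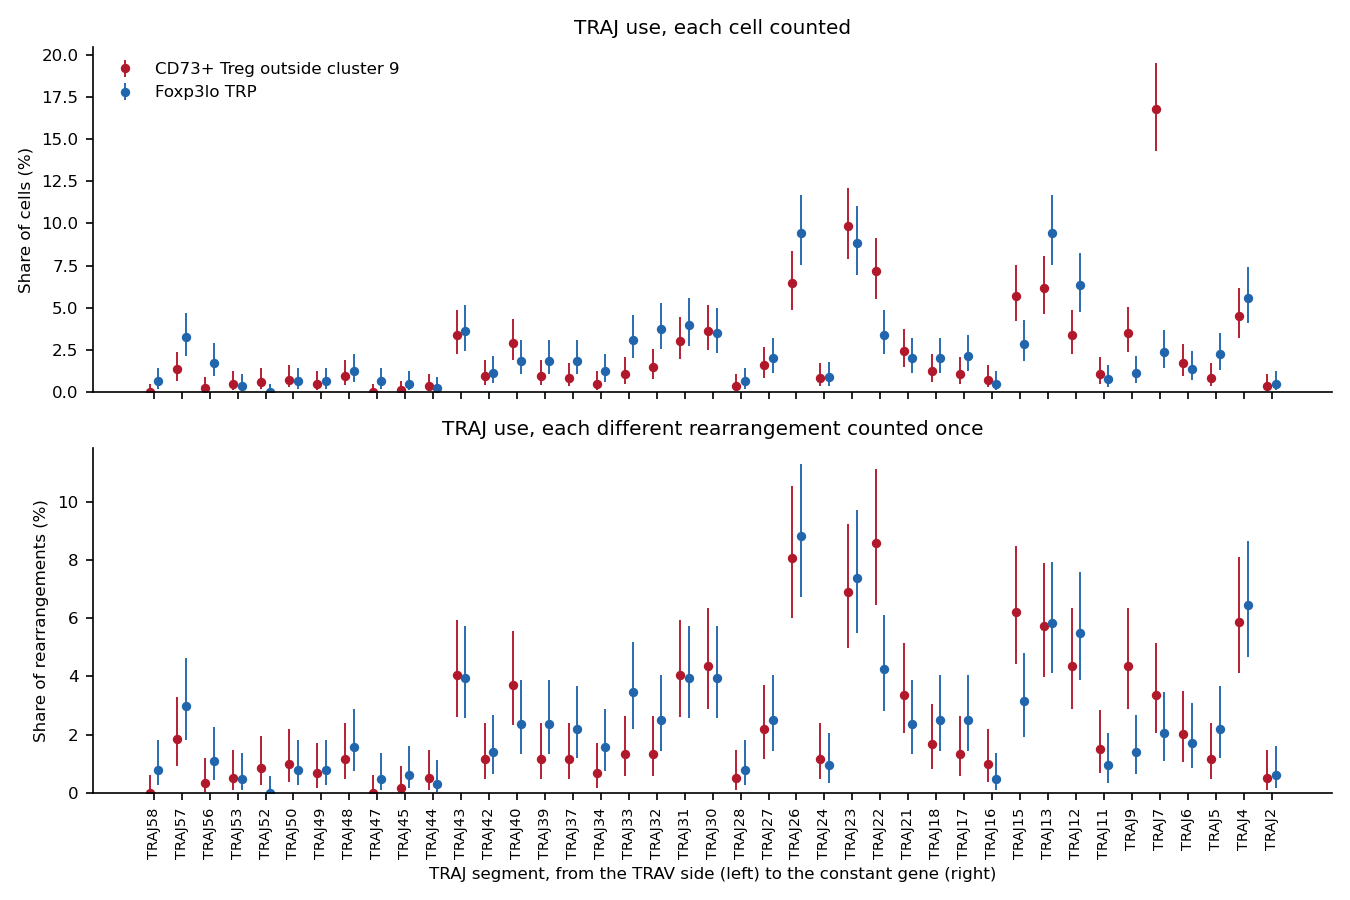
Share of CD73+ Treg outside cluster 9 (red) and Foxp3lo TRP (blue) using each TRAJ, by cells (upper panel) and by different rearrangements (lower panel), in %; segments run from the TRAV side to the constant gene and bars are exact 95% intervals. TRAJ7 stands out in CD73+ Treg by cells (16.8%) and falls to 3.36% when each rearrangement counts once, whereas TRAJ22 and TRAJ9 keep intervals that do not overlap.

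Along the locus, segments nearest the constant gene (TRAJ2 to TRAJ19) accounted for 47.1% (43.7 to 50.6%) and 37.2% (33.8 to 40.6%) of the CD73+ Treg and Foxp3lo TRP cells. The middle group (TRAJ20 to TRAJ39) was used by 40.2% and 46.4%, and the group nearest the TRAV genes (TRAJ40 to TRAJ58) by 12.6% and 16.4%, with overlapping intervals for both. By different CDR3 the TRAJ2 to TRAJ19 shares were 39.03% and 34.4%, and overlapped. Without the 2 frequent TRAJ7 CDR3 described next, the gap in TRAJ2 to TRAJ19 by cells was 0.581 percentage points, against 9.96 with them.

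The largest differences in cell number lay in few CDR3. CAASAGYSNNRLTL was carried by 71 CD73+ Treg, 8.63% (6.80 to 10.8%), and by 1 Foxp3lo TRP, 0.124% (0.00315 to 0.691%). CAASADYSNNRLTL was carried by 60 CD73+ Treg, 7.29% (5.61 to 9.28%), and by 7 Foxp3lo TRP, 0.871% (0.351 to 1.79%). This TRAJ7 pair together held 131 of the 138 TRAJ7 cells of CD73+ Treg (94.9%) but 8 of the 19 of Foxp3lo TRP (42.1%). In CD73+ Treg the 7 joints of CAASAGYSNNRLTL, in the order printed, had 30, 16, 8, 6, 6, 4 and 1 cells, and the 1 Foxp3lo TRP cell carried the most frequent of them. The joints of CAASADYSNNRLTL had 32, 19, 6, 2 and 1 cells in CD73+ Treg, and the 7 Foxp3lo TRP cells carried the 2 most frequent, 5 and 2 cells. The joints differ in nucleotide sequence, so cells with different joints came from separate rearrangements.

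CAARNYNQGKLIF on TRAJ23 was the shared CDR3 with the most cells, 51 CD73+ Treg, 6.20% (4.65 to 8.07%), and 25 Foxp3lo TRP, 3.11% (2.02 to 4.56%). It was made by 16 different rearrangements, 13 in CD73+ Treg and 8 in Foxp3lo TRP, of which 5 were identical on both sides. Its 12 nucleotide sequences used all 6 arginine codons at residue 4. The joint without untemplated bases led on both sides, with 31 and 17 cells, and the next had 10 and 5. The third printed joint had 2 and 1 cells, tied with other joints on each side. The order was thus the same in both populations for the first 2 joints only.

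The opposite direction was led by the rank 4 CDR3, on TRAJ13, with 3 CD73+ Treg, 0.365% (0.0752 to 1.06%), and 38 Foxp3lo TRP, 4.73% (3.37 to 6.43%). Of those 38 cells, 35 carried the joint without untemplated bases, as did all 3 CD73+ Treg. The rank 6 CDR3, on TRAJ12, had 3 CD73+ Treg (0.365%) and 19 Foxp3lo TRP, 2.36% (1.43 to 3.67%). Among 903 different CDR3, 5 had a higher share in CD73+ Treg with intervals apart (0.554%) and 3 a lower one (0.332%). The 5 were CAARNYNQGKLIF, the TRAJ7 pair and the leading CDR3 on TRAJ13 and on TRAJ22 that were private to CD73+ Treg, and the 3 were ranks 4 and 6 and the leading private CDR3 of Foxp3lo TRP, on TRAJ56. With cluster 9 kept, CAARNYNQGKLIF had a gap of 1.72 percentage points, against 3.09 without, and its intervals overlapped, as did those of the private TRAJ13 and TRAJ22 CDR3 (0.946 and 0.851 points, against 1.22 and 1.09).

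The remaining shared CDR3 among the 10 with the most cells had overlapping intervals. The rank 5 CDR3, on TRAJ32, had 8 CD73+ Treg and 19 Foxp3lo TRP. Rank 7, on TRAJ13, had 9 and 7, and rank 9, on TRAJ30, had 9 and 3. The TRAJ26 sequences of ranks 8 and 10 leaned to Foxp3lo TRP, with 3 against 10 and 2 against 9 cells. The 10 together were carried by 219 CD73+ Treg, 26.6% (23.6 to 29.8%), and 138 Foxp3lo TRP, 17.2% (14.6 to 19.95%). The TRAJ7 pair held 131 of these CD73+ Treg and 8 of these Foxp3lo TRP. Without it, the rest of the 10 had more cells in Foxp3lo TRP.

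**Figure D2:**
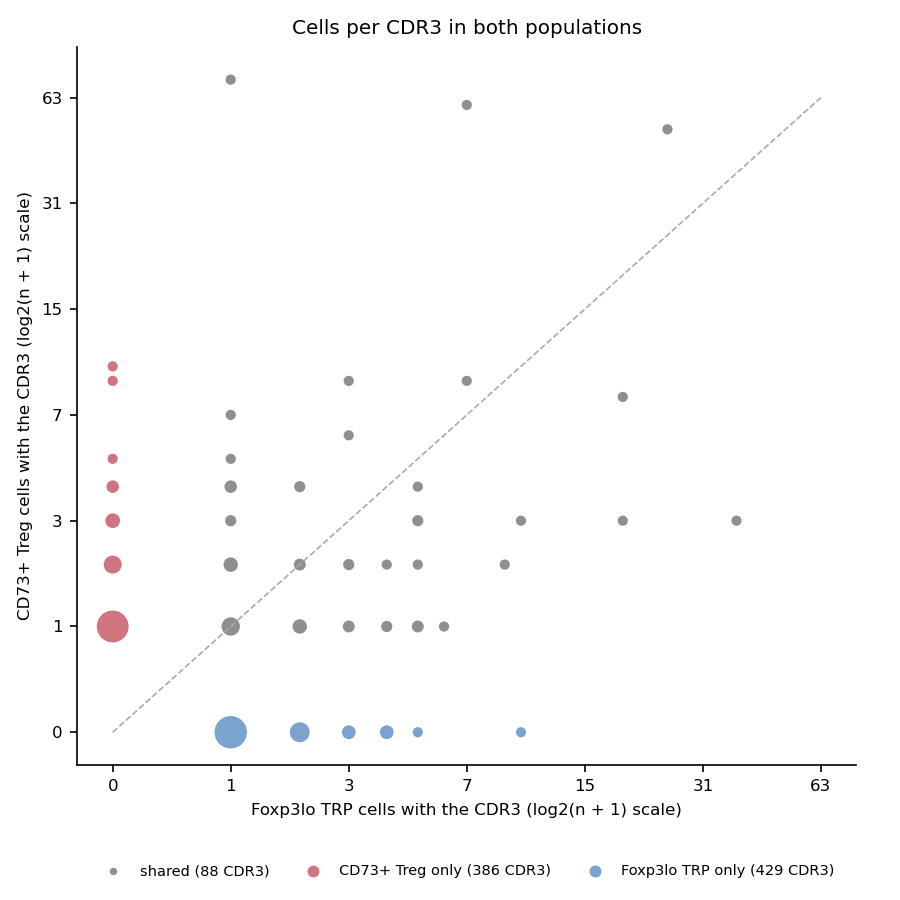
Number of CD73+ Treg (vertical axis) and Foxp3lo TRP (horizontal axis) carrying each CDR3, on a log2(n + 1) scale; a point stands for all CDR3 with the same pair of numbers, with area growing with the square root of how many there are, and the dashed line marks equal numbers. The grey points at 71 against 1 and 60 against 7 cells are the TRAJ7 pair, that at 3 against 38 is on TRAJ13, and most CDR3 lie at 1 cell on 1 side.

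Of the different CDR3, 88 were shared, which is 18.6% of the 474 in CD73+ Treg and 17.02% of the 517 in Foxp3lo TRP. They were carried by 357 CD73+ Treg, 43.4% (39.96 to 46.8%), and 284 Foxp3lo TRP, 35.3% (32.0 to 38.7%). Without the TRAJ7 pair these shares were 32.7% (29.2 to 36.3%) and 34.7% (31.4 to 38.1%), with overlapping intervals and the lower share in CD73+ Treg. With the cells of cluster 9 kept, 98 CDR3 were shared and carried by 36.0% and 37.1%, so the direction turned. Among cells of cluster 3 alone, the 88 were carried by 45.4% (40.2 to 50.6%) of CD73+ Treg and 44.7% (28.6 to 61.7%) of Foxp3lo TRP. When sharing was counted anew within cluster 3, only 9 CDR3 were shared, and 10.9% and 28.9% of cells carried them. Among the 88, 25 had more cells in CD73+ Treg, 30 more in Foxp3lo TRP and 33 the same number. Most sharing was thin: 30 had a single cell on each side and 48 had at most 3 cells in all.

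The private CDR3 were 386 in CD73+ Treg, carried by 466 cells (56.6%), and 429 in Foxp3lo TRP, carried by 520 cells (64.7%). Of these, 342 and 370 were seen in 1 cell, so that private here means not found among the 804 or 823 cells of the other side; a count of 0, read as at most 3 cells, leaves room for 0.373% in Foxp3lo TRP and 0.365% in CD73+ Treg, and the exact upper limits are 0.458% and 0.447%. The private CDR3 of CD73+ Treg with the most cells were on TRAJ13, with 10 cells and 6 rearrangements, and on TRAJ22, with 9 cells and 5 rearrangements. The next, on TRAJ12, had 5 cells, all with 1 nucleotide sequence that was assigned to 5 TRAV segments. A CDR3 on TRAJ43 and another on TRAJ22 had 4 cells each. The leading private CDR3 of Foxp3lo TRP was on TRAJ56, with 10 cells and 3 rearrangements, followed by 1 on TRAJ4 with 5 cells, and by others on TRAJ57, TRAJ30 and TRAJ33 with 4 each.

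Shared CDR3 were mostly made more than once. They had 3.102 ± 2.08 rearrangements each (mean ± SD over 88 CDR3) with a median of 2.5 and a highest of 16, and 77 of 88 (87.5%, 78.7 to 93.6%) had at least 2. The numbers with 1, 2, 3, 4 and 5 rearrangements were 11, 33, 16, 15 and 4, and 9 had more. Of private CDR3 in at least 2 cells, 28 of 44 (63.6%, 47.8 to 77.6%) in CD73+ Treg and 39 of 59 (66.1%, 52.6 to 77.9%) in Foxp3lo TRP had at least 2, but they had fewer cells. At a matched 2 cells, 22 of 30 CDR3 shared by 1 cell of each side (73.3%, 54.1 to 87.7%) had 2 rearrangements, against 16 of 27 (59.3%, 38.8 to 77.6%) private to CD73+ Treg and 27 of 43 (62.8%, 46.7 to 77.0%) private to Foxp3lo TRP. At that number of cells the intervals overlapped. These counts depend on which of the near-identical TRAV14 copies was assigned. By nucleotide sequence alone, 76.1% of the 88 had at least 2. At a matched 2 cells, 16 of 30 shared CDR3 (53.3%) then had 2 sequences. For CDR3 private to CD73+ Treg it was 12 of 27 (44.4%), and for those private to Foxp3lo TRP 23 of 43 (53.5%).

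Sharing of the whole rearrangement was less common than sharing of the CDR3. The 88 shared CDR3 held 273 rearrangements, 167 in CD73+ Treg and 157 in Foxp3lo TRP, and 51 were identical on both sides, in 37 of the 88 (42.0%, 31.6 to 53.0%). Identical rearrangements were carried by 179 CD73+ Treg (21.7%) and 154 Foxp3lo TRP (19.2%). If the TRAV was disregarded, 69 CDR3 nucleotide sequences were identical on both sides, in 56 of 88 CDR3 (63.6%, 52.7 to 73.6%). TRAV14 copies are near-identical and their assignment was left as deposited, so the first count depends on it. A CDR3 on TRAJ31 and another on TRAJ4 had 7 rearrangements each and none in common, although the latter had only 2 nucleotide sequences, on 6 TRAV copies. Others on TRAJ43 and TRAJ22 had 6 and 5, again with none identical. By nucleotide sequence alone, the TRAJ4 and TRAJ43 CDR3 each had 2 sequences in all and the same 2 on each side. Those of the TRAJ43 CDR3 were on 4 TRAV copies. The TRAJ31 CDR3 had 6 nucleotide sequences, 2 in CD73+ Treg and 5 in Foxp3lo TRP, so these overlapped too. Only the TRAJ22 CDR3 had none in common, with 5 in all, 4 and 1 by side.

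**Figure D3:**
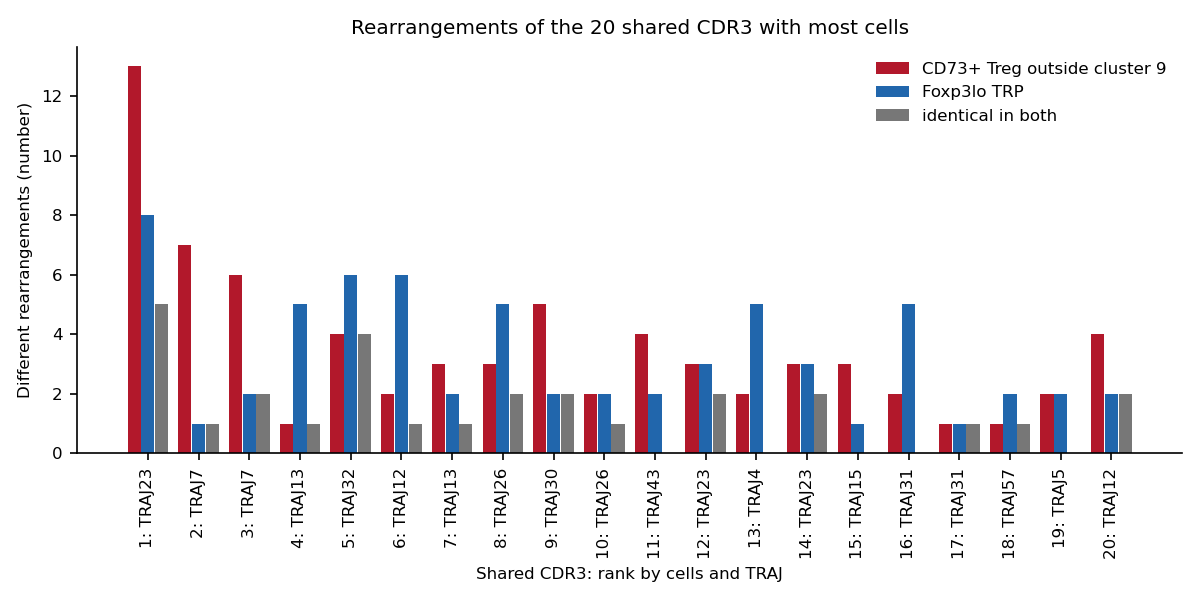
Number of different rearrangements of the 20 shared CDR3 with the most cells in CD73+ Treg (red), in Foxp3lo TRP (blue) and identical in both (grey), ordered by cells and labelled by rank and TRAJ. Rank 1, on TRAJ23, has 13 and 8 with 5 identical, and the TRAJ7 pair at ranks 2 and 3 has 7 and 6 in CD73+ Treg against 1 and 2 in Foxp3lo TRP.

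Rearrangements of shared CDR3 held fewer untemplated bases on average than those of private CDR3 in both populations. The means were 2.49 ± 1.61 against 3.40 ± 2.29 bases in CD73+ Treg and 2.29 ± 1.41 against 3.57 ± 1.98 in Foxp3lo TRP (SD over rearrangements). At most 2 untemplated bases were found in 50.3% (42.5 to 58.1%) of shared and 38.4% (33.8 to 43.2%) of private rearrangements of CD73+ Treg. Those intervals just overlapped. In Foxp3lo TRP these shares were 59.2% (51.1 to 67.0%) and 28.4% (24.4 to 32.7%), with intervals apart. Rearrangements identical on both sides held 1.90 on average, and 12 of 51 (23.5%) held none. Over all rearrangements the populations were close, 3.14 ± 2.16 and 3.25 ± 1.94. CDR3 lengths averaged 13.28 ± 1.18 and 13.41 ± 1.16 residues over cells. A length of 15 residues was found in 5.47% (4.02 to 7.25%) of CD73+ Treg and 11.3% (9.21 to 13.7%) of Foxp3lo TRP. By different CDR3 it was found in 8.02% and 12.2%, with overlapping intervals. A length of 14, that of the TRAJ7 pair, was found in 41.7% (38.3 to 45.1%) and 34.7% (31.4 to 38.1%) of cells, just apart. By different CDR3 its shares were 31.9% and 31.7%.

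TRAV use differed at 2 segments. Of 23 TRAV seen, 1 had a higher share in CD73+ Treg with intervals apart (4.35%) and 1 a lower share (4.35%). TRAV14D-3-DV8 (chr14:53078452-53079045, + strand) made up 32.7% (29.5 to 36.0%) of the CD73+ Treg chains and 25.2% (22.3 to 28.4%) of the Foxp3lo TRP chains. Without the TRAJ7 pair, which lay on this copy in 130 of its 131 CD73+ Treg cells, the shares were 20.1% (17.2 to 23.3%) and 24.5% (21.5 to 27.6%), so the direction turned and the intervals overlapped. TRAV14-3 (chr14:53763173-53763694) was used by 21 CD73+ Treg, 2.55% (1.59 to 3.87%), and 50 Foxp3lo TRP, 6.22% (4.65 to 8.12%). With cluster 9 kept, the gap fell from -3.67 to -1.39 percentage points for TRAV14-3 and from 7.44 to 4.08 for TRAV14D-3-DV8, and the intervals of both overlapped. The next copies overlapped: TRAV14-1 had 18.96% and 20.8%, TRAV14N-1 12.9% and 15.05%, TRAV14-2 11.7% and 10.2%, and TRAV14N-3 10.7% and 9.95%. TRAV genes outside the TRAV14 family were read in 17 CD73+ Treg (2.07%) and 7 Foxp3lo TRP (0.871%). No TRAV had intervals apart when each CDR3 counted once per TRAV it was read on, or when each rearrangement counted once.

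In the other 4 sorted populations the leading CDR3 followed different courses. The TRAJ7 pair was found in 51 of 1783 CD25+ TRP, 2.86% (2.14 to 3.74%), 10 of 223 CD73- Treg, 4.48% (2.17 to 8.09%), 3 of 1266 DP cells (0.237%) and 0 of 1849 CD4 SP cells, where the exact upper limit is 0.199%. Foxp3lo TRP, with 0.995% (0.431 to 1.95%), lay below CD25+ TRP with intervals apart. The rank 4 CDR3 was instead found in 113 CD4 SP cells (6.11%), 60 CD25+ TRP (3.37%), 11 DP cells (0.869%) and 1 CD73- Treg cell, and the rank 6 CDR3 in 48 CD4 SP cells (2.60%), 20 CD25+ TRP (1.12%) and no CD73- Treg. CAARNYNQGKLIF was in 18 CD4 SP cells (0.973%), 38 CD25+ TRP (2.13%) and 5 CD73- Treg (2.24%).

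CDR3 private to Foxp3lo TRP were found in CD4 SP cells and CD25+ TRP at higher shares than those private to CD73+ Treg. Of the 88 shared CDR3, 69 (78.4%) were also found in CD25+ TRP, 56 (63.6%) in CD4 SP cells and 35 (39.8%) in each of DP cells and CD73- Treg. Of the 386 private to CD73+ Treg, 43 (11.1%, 8.18 to 14.7%) were found in CD4 SP cells and 76 (19.7%, 15.8 to 24.01%) in CD25+ TRP. Of the 429 private to Foxp3lo TRP, 107 (24.9%, 20.9 to 29.3%) were found in CD4 SP cells and 125 (29.1%, 24.9 to 33.7%) in CD25+ TRP. The intervals were apart for both populations, while in DP cells the shares were 13.5% and 12.4%. Among private CDR3 of 1 cell, 30 of 342 (8.77%, 6.00 to 12.3%) and 77 of 370 (20.8%, 16.8 to 25.3%) were found in CD4 SP cells, and 48 (14.04%, 10.5 to 18.2%) and 91 (24.6%, 20.3 to 29.3%) in CD25+ TRP. Shared CDR3 are in at least 2 cells by definition, so their shares cannot be set against those of private CDR3 directly. At a matched 2 cells, 17 of 30 shared CDR3 (56.7%), 13 of 27 private to CD73+ Treg (48.1%) and 20 of 43 private to Foxp3lo TRP (46.5%) were found in CD25+ TRP, with overlapping intervals.

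**Figure D4:**
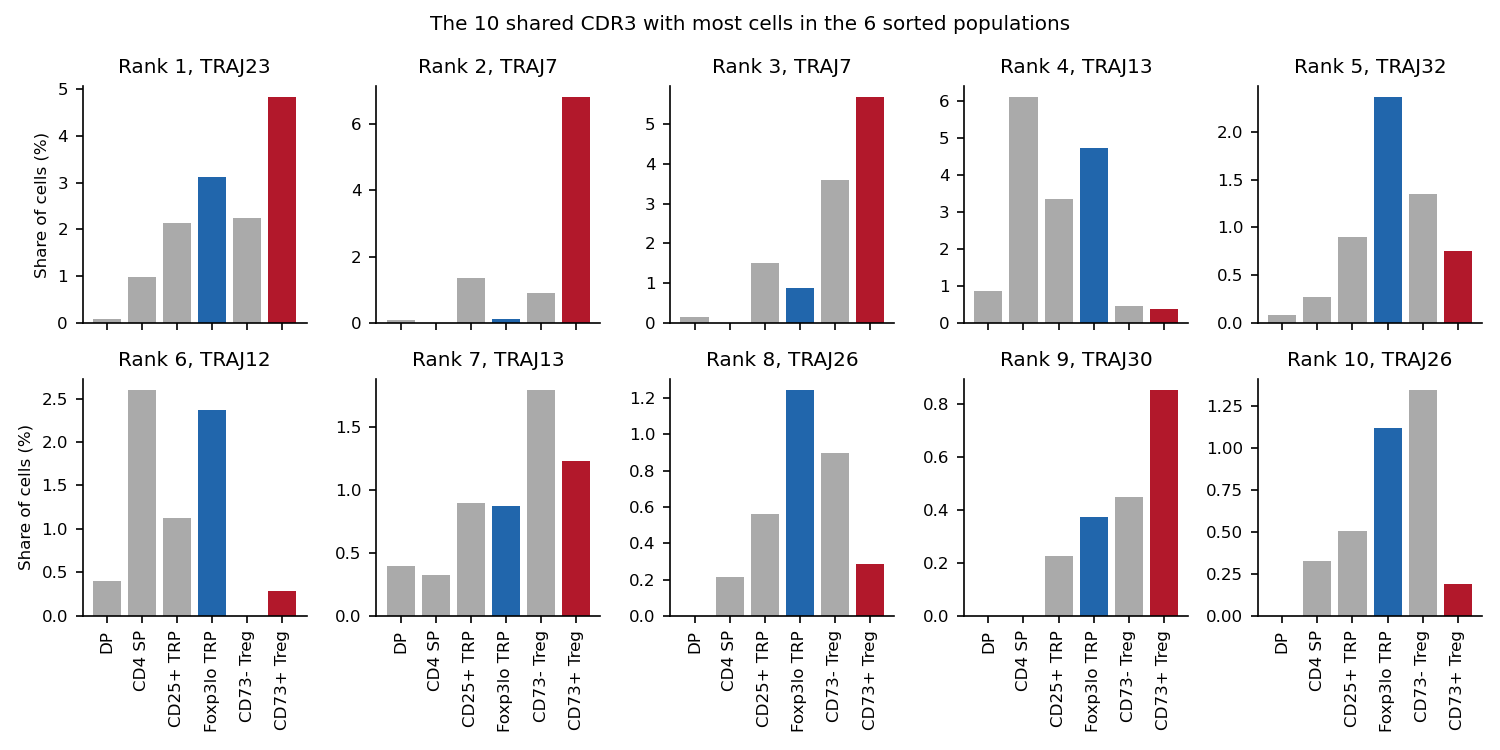
Share of cells with 1 productive α chain carrying each of the 10 shared CDR3 with the most cells, in the 6 sorted populations, in %, with a separate vertical scale in each panel; Foxp3lo TRP is blue and CD73+ Treg, here with cluster 9, is red. The TRAJ7 panels (ranks 2 and 3) are highest in CD73+ Treg and empty in CD4 SP, whereas the rank 4 TRAJ13 and rank 6 TRAJ12 panels are highest in CD4 SP.

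TRAJ7 use varied between the authors' clusters within CD73+ Treg. It was 35.1% (26.4 to 44.6%) of 114 cells in cluster 7, 18.8% (14.9 to 23.1%) of 368 in cluster 3 and 5.61% (2.09 to 11.8%) of 107 in cluster 0. In Foxp3lo TRP it was 3 of 15 cells in cluster 7, 2.63% of 38 in cluster 3 and 1.59% of 440 in cluster 0. Within cluster 3 the populations' intervals did not overlap, and within clusters 0 and 7 they did. For the TRAJ7 pair alone, cluster 7 held 40 CD73+ Treg (35.1%, 26.4 to 44.6%) and 0 of the 15 Foxp3lo TRP (exact upper limit 21.8%). Intervals of the pair were thus apart in clusters 3 and 7 and overlapped in cluster 0. The populations were spread differently over clusters: 56.0% of CD73+ Treg lay in cluster 3 and 12.8% in cluster 0, against 5.24% and 56.7% of Foxp3lo TRP. Depth moved with these results: the median was 4429 UMIs per cell in CD73+ Treg of cluster 7, 2730 in cluster 3 and 2007 in cluster 0, and 3966 in carriers of the TRAJ7 pair against 2848.5 in other CD73+ Treg with 1 α chain. Its part in the TRAJ7 result was not tested.

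**Figure D5:**
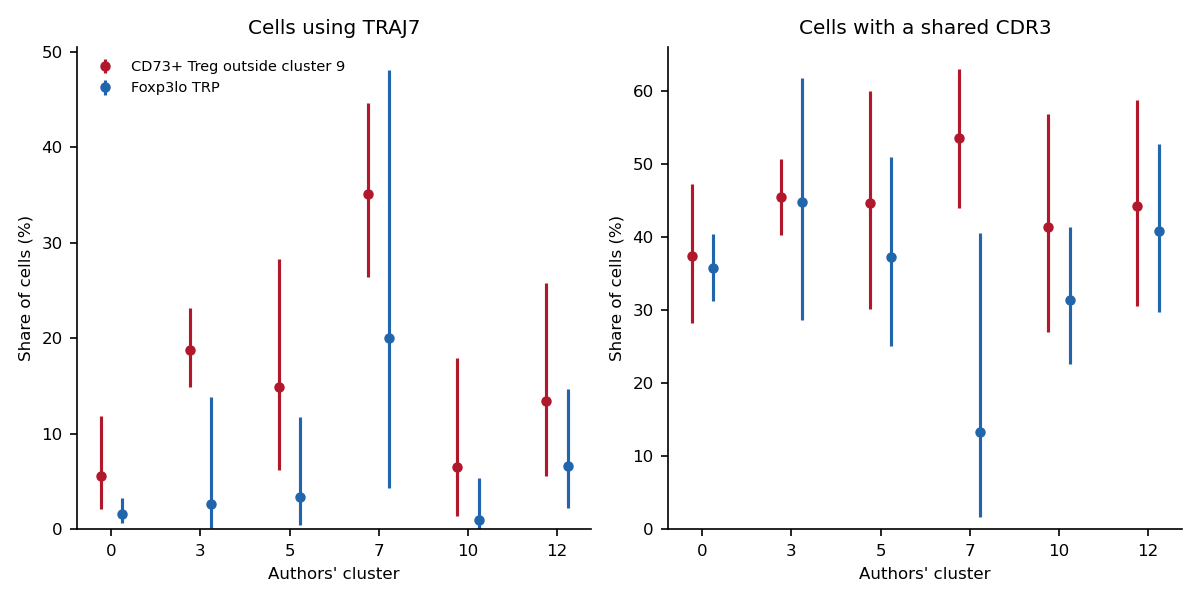
Share of cells using TRAJ7 (left) and carrying a shared CDR3 (right) in 6 of the authors' clusters, in %, for CD73+ Treg (red) and Foxp3lo TRP (blue), with exact 95% intervals. TRAJ7 is highest in CD73+ Treg of cluster 7 (35.1%), and the Foxp3lo TRP value there rests on 15 cells.

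Depth and α chain recovery differed between the populations. CD73+ Treg had 5996798 UMIs in all and a median of 2748 UMIs and 1191 genes per cell, and Foxp3lo TRP had 3246288, 2114 and 1009. Exactly 1 productive α chain was read in 44.1% (41.9 to 46.4%) of CD73+ Treg and 57.7% (55.1 to 60.3%) of Foxp3lo TRP, so a larger share of CD73+ Treg went uncounted. The median α chain had 19 and 14 contig UMIs. The hashtag identities could not be checked against Foxp3, Nt5e (which encodes CD73) or other markers, since the gene rows used here carry no names.

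Summed expression of the populations was close for most gene rows. Over 2952 rows with at least 50 CPM (UMI counts scaled to a common total) on either side, the root-mean-square log2 ratio of CD73+ Treg to Foxp3lo TRP was 0.42. Counting error alone would give 0.10. The parts add as squares, which left 0.41 beyond counting. Of these rows 59 were at least 2-fold higher in CD73+ Treg (2%) and 23 at least 2-fold lower (0.779%), and 16 were over 4-fold higher and none over 4-fold lower. Within cluster 0 alone the value was 0.30, with 0.24 from counting and 0.18 beyond it. Within cluster 3 alone it was 0.55, with 0.34 from counting and 0.43 beyond it. Carriers of shared and of private CDR3 showed similar distances between the populations, 0.57 and 0.55. Within a population, carriers of shared and private CDR3 differed by 0.27 in each. The part from counting was 0.18 in CD73+ Treg and 0.23 in Foxp3lo TRP, and the part beyond it 0.21 and 0.13. Carriers of the TRAJ7 pair differed from other CD73+ Treg with 1 α chain by 0.46 over 2879 rows, with 0.22 from counting and 0.41 beyond it. Of these rows 35 were at least 2-fold lower and 15 higher in the carriers, 1.74% in all. As gene rows carry no names, any rows of the TRAV and TRAJ segments that define the carriers could not be set aside. The carriers were deeper and were spread differently over clusters. Of the 131, 67 lay in cluster 3 and 40 in cluster 7, against 301 and 74 of the 692 others. Among cells of cluster 3 alone the carriers differed by 0.55, with 0.34 from counting, and of cluster 7 alone by 0.59, with 0.41. The part beyond counting was 0.43 in both.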

How the data were processed

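Gene expression, hashtag and α chain libraries came from the same cells (10x Genomics 5' chemistry, per the labels' protocols). Cell Ranger 3.1.0, Seurat 3.1.1, mm10 and GRCm38 are named in the submitters' processing notes. Cell filters and doublet treatment: not given in the sources used here. Deposited by the authors were UMI counts per gene row, values on a natural log scale (ln of 1 plus 10000 times the count over the cell's total, from the values), metadata with hashtag class and cluster, and a contig table with UMI and read counts. Metadata rows were joined to barcodes by matrix column order, and clonotypes matched for 6982 of 6982 cells. Gene rows carry no names here, so the planned markers could not be used.

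Shares, shared CDR3 and rearrangements were counted with Python 3.11.15 and scipy 1.17.1. "Apart" means that exact 95% intervals do not overlap. UMI counts were added up over each population's cells and expressed as CPM, and 1 CPM was added before taking log2. TMM scaling used edgeR 4.0.16, with no count test. Calculations were tested on simulated data. Untemplated bases are those left after the longest match to the germline TRAV end and then to the TRAJ. Germline segments and coordinates are from GENCODE M21, in which all 41 TRAJ and 23 TRAV were found. Named segments are those apart plus the 5 most used per side; named CDR3 are the 10 shared with the most cells, those with the most rearrangements, and the 5 leading private ones per side. Members and lists were chosen with earlier results of these data known, and cluster, carrier, length and untemplated-base comparisons were added after values were seen.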

Additional observations from a re-analysis of the deposited data

Results flagged for a closer look

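Contigs outside the comparison of single α chains were read above the share of 3 cells that a count of 0 allows (0.161% of CD73+ Treg and 0.215% of Foxp3lo TRP), with 1 exception given last. A second productive α chain was read in 31 of 1865 CD73+ Treg, 1.66% (1.13 to 2.35%), and in 44 of 1393 Foxp3lo TRP, 3.16% (2.30 to 4.22%), although the mice were TCRα+/-. A nonproductive α contig was read in 29 CD73+ Treg, 1.55% (1.04 to 2.23%), and in 33 Foxp3lo TRP, 2.37% (1.64 to 3.31%). A productive β contig was read in 143 CD73+ Treg, 7.67% (6.50 to 8.97%), and in 86 Foxp3lo TRP, 6.17% (4.97 to 7.57%), from a library enriched for α chains. A β contig other than TRBV19 was read in 11 CD73+ Treg, 0.590% (0.295 to 1.05%), and in 3 Foxp3lo TRP, which is at that limit and not above it.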

How the results depend on the processing

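Differences are in percentage points, CD73+ Treg minus Foxp3lo TRP. Leaving out the TRAJ7 pair was chosen after seeing the data. No paired analysis was possible because each library type is 1 sample and each population 1 pool. Of 131 values of named segments and CDR3 whose intervals were apart in the main count, 82 kept their sign and stayed apart, 42 kept their sign but overlapped and 7 turned. Of the 238 whose intervals overlapped in the main count, 29 changed sign and 2 became apart. Each segment or CDR3 enters these counts once per setting. The setting of at least 2 contig UMIs removed no chain, as the lowest had 2 on both sides. Its values were therefore bound to stay the same, which raises the number that stayed apart. The 7 that turned were TRAJ7 without the 10 most frequent CDR3 (-0.493), with each CDR3 counted once (-0.246) and without the TRAJ7 pair (-0.370), TRAV14D-3-DV8 without the 10 most frequent CDR3 (-1.54) and without the pair (-4.41), TRAJ9 in cluster 0 only (-1.14) and TRAJ56 in cluster 3 only (0.272). The number of TRAJ apart (4) was 6 with cluster 9 kept and in the TRAV14 family only, and 5 with every productive α chain. It was 3 without the 10 most frequent CDR3 and without the pair, 0 in cluster 0, 1 in cluster 3, 0 with each CDR3 once and 2 with each rearrangement once. The number of TRAV apart (2) was 0 with cluster 9 kept, in cluster 0, in cluster 3, with each CDR3 once per TRAV and with each rearrangement once. It was 1 without the 10 most frequent CDR3 and without the pair. TRAJ2 to TRAJ19 differed by 1.10 in cluster 0, 15.2 in cluster 3, 4.60 by CDR3, 3.78 by rearrangement and 0.581 without the pair. TRAJ20 to TRAJ39 differed by 1.02 in cluster 3 and 0.973 without the pair. TRAJ40 to TRAJ58 differed by -0.145 with cluster 9 kept, 1.57 in cluster 0 and -16.2 in cluster 3. Of cells in cluster 0, 37.4% of CD73+ Treg and 35.7% of Foxp3lo TRP carried a CDR3 shared in the main count. Counted anew within each setting, shared CDR3 numbered 20 in cluster 0, 9 in cluster 3 and 51 when nucleotides, TRAV and TRAJ had to match. Their shares of CD73+ Treg and Foxp3lo TRP were 22.8% and 21.9% without the 10 most frequent, 28.0% and 18.6% in cluster 0, 10.9% and 28.9% in cluster 3, and 21.7% and 19.2% by whole rearrangement; with cluster 9 kept they were 36.0% and 37.1%, and without the pair 32.7% and 34.7%. Shared CDR3 with at least 2 rearrangements were 95% in cluster 0, 76.1% by nucleotides alone and with TRAV14 taken as 1 segment, and 41.0% over rearrangements of at least 2 cells; those with an identical one were 55%, 63.6%, 63.6% and 94.9%. The root-mean-square log2 ratio was 0.44 with TMM and with median-of-ratios scaling, 0.39 from the authors' normalized values, 0.41 with cells thinned to 1000 UMIs, 0.37 with a prior of 10 CPM, 0.47 with a filter of 20 CPM, 0.55 without a filter, 0.51 with cluster 9 kept, 0.51 in cells with 1 α chain, 0.41 without the top 5% of cells by UMIs, 0.30 in cluster 0 and 0.55 in cluster 3. These ratios include counting error, which was 0.24 in cluster 0 and 0.34 in cluster 3 against 0.10 in the main count. Apart from settings that leave fewer cells or receptors, the cause was not tested. Cluster 3 holds 38 Foxp3lo TRP with 1 α chain, which limits its values.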
